A study of Mus musculus with 66 samples.

Results

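The agreement of paired arrays within strains of the BXD panel was measured in medial prefrontal cortex. The BXD lines are recombinant inbred strains, each a fixed mixture of the genomes of the inbred mice C57BL6/J and DBA/2J. The arrays were chosen by their titles and strain labels: 27 BXD strains had 1 saline and 1 ethanol array each, which gave 54 of the 66 arrays of the study. The other 12 arrays came from the progenitors, 3 saline and 3 ethanol arrays each of C57BL6/J and DBA/2J, and served as pools replicated within 1 genotype. All mice were males of 10 to 12 weeks, injected with saline or ethanol at 1.8 g/kg, restrained for 15 minutes, placed in a light-dark chamber for 10 minutes and killed 4 hours after the injection. Each array held RNA pooled from 4 to 5 mice, so no value belongs to a single animal. Restraint and the light-dark test were shared by every group, saline included, and no undisturbed group was analysed here.

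Inbred mice of a strain are genetically alike, so a transcript whose level is set by inherited variants should hold its rank in separate groups of animals of that strain. A transcript that answers to recent experience, to the time of day, to the tissue caught in a dissection or to the handling of RNA can differ between groups of the same strain. Local variants that act on a neighbouring gene are a well-known source of stable strain differences in recombinant inbred panels.

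The deposited values are log2 expression levels, on which a difference of 1 is a doubling, and 13196 genes were compared. For each gene the treatment means were removed, and the variation was divided between strains and between the paired arrays of a strain. The intraclass correlation (ICC) is 1 where both arrays of each strain agree exactly, 0 where they are no more alike than arrays of different strains, and negative where they are less alike. The strain SD is the spread of strain levels and the pool SD the spread of an array around its strain. The pool SD joins differences between groups of animals, array noise and any strain difference in the response to ethanol, which cannot be told apart with 1 array per strain and treatment. The strain part joins genotype with anything else that both pools of a strain shared, and these cannot be told apart either. In RNA from whole tissue, fewer cells of a type and less RNA per cell cannot be told apart.

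Strain accounted for a modest share of the variation of most genes and nearly all of it in a few. The median ICC was 0.184, with quartiles of 0.00456 and 0.370. A strain effect passed in 2688 of 13196 genes (20.4%; limma, moderated F over 26 strain coefficients, adjusted p below 0.05), and 4339 (32.9%) had an unadjusted p below that level. In 444 genes (3.36%) the ICC was at least 0.75, in 119 (0.902%) at least 0.9, and in 159 the lower 95% bound was itself at least 0.75. At the other end 7907 genes (59.9%) had an ICC below 0.25, and 3223 (24.4%) had a negative one. The median strain SD was 0.0556 log2 units against a median pool SD of 0.126, and the strain SD was the larger in 1761 genes (13.3%).

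The level of a gene had little bearing on these figures. In 5 equal groups of genes from the dimmest to the brightest, the median ICC was 0.168, 0.20, 0.198, 0.196 and 0.162, and a strain effect passed in 16.9%, 21.9%, 23.5%, 21.8% and 17.7%. The median pool SD fell by level, from 0.141 in the dimmest group to 0.109 in the brightest. The pool SD was close to that of replicate progenitor pools, whose median was 0.119. The variance within BXD pairs was larger than that among progenitor replicates in 7748 genes (58.7%), with a median ratio of 1.15. In a one-sided F test 0 genes passed after adjustment (0%), and 794 (6.02%) had an unadjusted p below 0.05. With 8 residual degrees of freedom in the progenitors, this test could detect large ratios only.

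**Figure D1:**
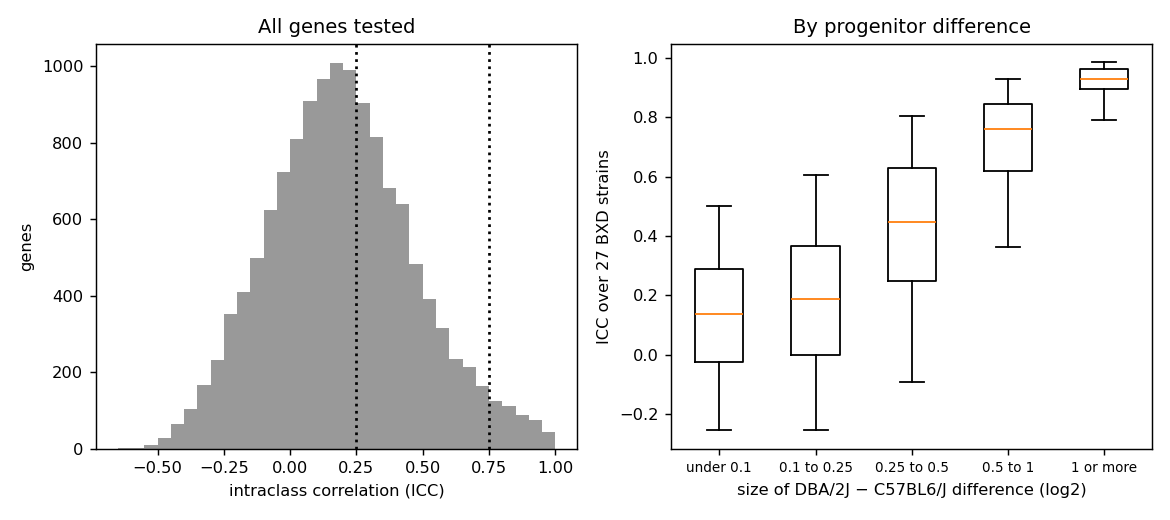
Left, number of genes by ICC over 27 BXD strains, with dotted lines at 0.25 and 0.75. Right, ICC by the size of the progenitor difference (log2); boxes show quartiles and median and whiskers the 5th and 95th percentiles, and the medians rise from 0.136 in the leftmost box to 0.929 in the rightmost.

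Agreement followed the difference between the parents, measured on arrays that the ICC did not use. DBA/2J and C57BL6/J differed in 2206 genes (16.7%; limma, adjusted p below 0.05, both treatments averaged), 1166 higher (8.84%) and 1040 lower (7.88%) in DBA/2J. Genes called in both sets numbered 1315, which is 48.9% of those with a BXD strain effect and 59.6% of those that differed between progenitors. The progenitors differed in 113 of the 119 genes with an ICC of at least 0.9 (95%), in 394 of the 444 with at least 0.75 (88.7%) and in 574 of the 7907 below 0.25 (7.26%). The median ICC was 0.136 for 7140 genes whose progenitor difference was under 0.1 log2 units, 0.449 for 1219 genes between 0.25 and 0.5, and 0.929 for 101 genes of 1 or more. The plot of ICC by progenitor difference shows this climb from box to box.

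The 100 genes that differed at least 2-fold and passed between progenitors, 41 higher and 59 lower in DBA/2J, also had a BXD strain effect in 100 of 100 cases. Their median ICC was 0.931 and their lowest 0.569. In 70 of them every strain had both of its arrays on the same side of the midpoint between the parents. In 13 genes 1 strain was split across the midpoint, and in 17 at least 2 strains were. The number of strains nearer DBA/2J had a median of 13 of 27 and ran from 3 to 26.

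In 11 of the 12 genes of highest ICC no strain was split across the midpoint between the parents. Prune2 had saline levels from 4.89 to 10.42 (median 10.11) and ethanol levels from 4.73 to 10.59 (median 10.18). Its strain means ran from 5.00 in BXD06 to 10.44 in BXD42, with 10 strains nearer DBA/2J (5.16), 17 nearer C57BL6/J (10.30) and no strain split, at an ICC of 0.992 (95% interval 0.982 to 0.996). The strain SD was 2.48 and the pool SD 0.22, so the levels formed separate high and low clusters wider apart than any pair of arrays.

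Kcnj9, which encodes the Girk3 subunit of G-protein-gated inward rectifier channels, showed the same form. Saline levels ran from 7.81 to 10.39 (median 8.23) and ethanol levels from 7.66 to 10.39 (median 8.17), with 11 strains nearer DBA/2J and 16 nearer C57BL6/J, and an ICC of 0.978. Kcnj10, the main inward rectifier of astrocytes, had an ICC of 0.930. Glo1, glyoxalase 1, which clears methylglyoxal, ran from 9.38 to 11.08 (median 10.52) after saline and from 9.33 to 10.82 (median 10.54) after ethanol, at an ICC of 0.910. Glo1 strain means were nearer DBA/2J in 17 strains, and none was split across the midpoint.

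Smaller differences could be as stable as large ones. Scg5, the chaperone of prohormone convertase 2, differed by 0.91 between progenitors, yet its ICC was 0.976 because its pool SD was 0.07. Pttg1 (securin) and Soga3 both reached 0.988, Pdxdc1 0.991, Rpgrip1, a protein of the photoreceptor cilium, 0.985, Hspa13, a chaperone of the Hsp70 family, 0.982 and Wwox, an oxidoreductase, 0.981. Krt12 had an ICC of 0.977 and 4833420G17Rik of 0.985. Strain means were not limited to the parental levels: those of Krt12 ran from 5.61 to 8.87 against 6.56 in DBA/2J and 8.43 in C57BL6/J, and 4833420G17Rik reached 10.34 in BXD18 against 9.52 in C57BL6/J. The remaining gene among the 12 highest, Zc4h2, did not differ between parents and is described with the genes that rest on 1 strain.

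The gene of most similar strain pattern began within 5 Mb for 7 of the 12 genes of highest ICC on the RefSeq map of GRCm38.p6, which was used to find neighbours only. Of 62 partners with a size of r of 0.8 or more, 30 were that near. Over the 27 strain means Rpgrip1 was most like Ang, a secreted ribonuclease (Pearson r = 0.989), and 14 of its 16 partners with a size of r of 0.8 or more began within 5 Mb. Tmem267 (r = 0.984) accompanied 4833420G17Rik, Rfk (r = -0.960) accompanied Prune2 and Thg1l (r = -0.951) accompanied Pttg1, each within 5 Mb. Kcnj9 had 35 such partners, of which 10 were neighbours, and the closest in pattern, Tceal8 (r = -0.936), lay on another chromosome. Wwox was also matched on another chromosome, by 2010315B03Rik (r = -0.976), as were Soga3 and Zc4h2, and the partner of Scg5 lay farther off on the same chromosome. These correlations share the same 54 arrays and are descriptions.

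**Figure D2:**
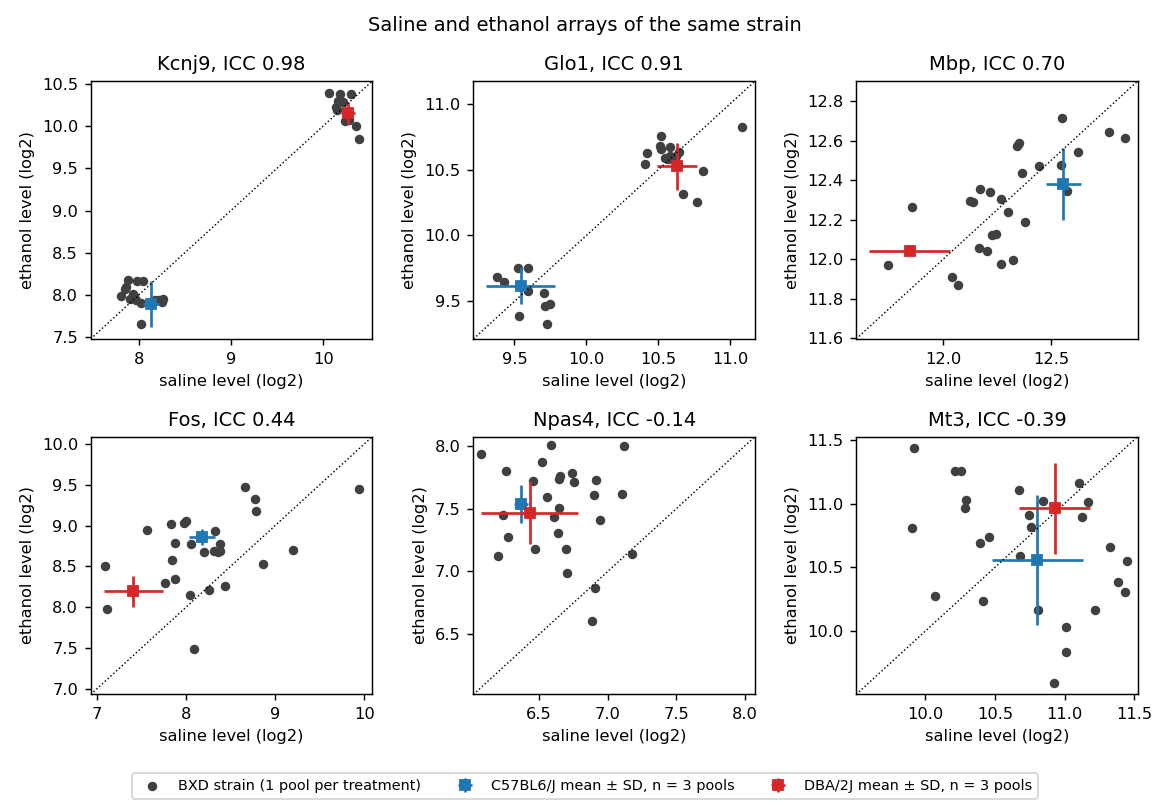
Level after ethanol against level after saline (both log2) for 6 genes; dark points are BXD strains with 1 pool per treatment, squares with bars are progenitor means ± SD (n = 3 pools), and the dotted line marks equal levels. Kcnj9 (ICC 0.978) and Glo1 (0.910) form separate clusters at the parental levels, Mbp (0.699) spreads along the line, and Npas4 (-0.136) and Mt3 (-0.392) do not follow it.

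Several probe sets of a gene did not always tell the same story. Among genes with an ICC of at least 0.75, 218 had more than 1 probe set above the level filter. In 79 of these another probe set was also at 0.75 or more, and in 38 every other one was below 0.25. For Prune2 the brightest probe set was 5.14 lower in DBA/2J and a second, with an ICC of 0.976, was 1.24 higher. Pdxdc1 gave +3.28 and -2.95, Hspa13 +2.12 and -1.09, and Kcnj9 +2.20 and -0.47 on probe sets that all had an ICC of at least 0.798. The direction of the parental difference thus depended on the probe set, and the part of sequence variants under probes was not tested. For Glo1 all 4 probe sets were higher in DBA/2J, with ICC values of 0.910 to 0.981, and for Pttg1 all 3 were lower.

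Not every stable gene differed between the parents. In 48 of the 444 genes with an ICC of at least 0.75 (10.8%) the progenitor difference was under 0.25 and did not pass. Nnt, the mitochondrial transhydrogenase that makes NADPH, had saline levels of 7.51 to 8.70 (median 7.75) and ethanol levels of 7.40 to 8.94 (median 7.76), with an ICC of 0.925. C57BL6/J was at 7.51 and DBA/2J at 7.65, and 23 of 27 strain means lay above both parents, BXD18 highest at 8.82. The parents were only 0.14 apart, so that count is no measure of strain variation. Chac1, a glutathione-degrading enzyme of the stress response, had an ICC of 0.924 with 7.51 in C57BL6/J and 7.34 in DBA/2J, and strain means from 6.93 in BXD09 to 7.99 in BXD18.

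In several such genes a single strain stood apart in both of its pools. In a search made after the values were seen, 7 genes had an ICC of at least 0.75 that fell below 0.25 when 1 strain was left out, and 7 different strains were involved. Zc4h2, a zinc finger protein of neural development, was at 5.42 and 5.40 in the saline and ethanol pools of BXD05, while the next lowest strain mean was 8.06; its ICC of 0.980 became 0.244 without BXD05. Exo5, a single-strand DNA exonuclease, was at 4.68 and 4.12 in BXD12 against 6.73 in the next lowest strain, and its ICC of 0.923 became -0.192. Tmem255a was at 3.81 and 3.88 in BXD14 against 5.98 in the next lowest strain.

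The pattern ran in both directions. Osbpl10 was low in BXD19 (7.32 and 7.20) and Zfp523 in BXD20 (7.75 and 7.51). Bag2, a cochaperone of Hsp70, was high in BXD32 (7.56 and 7.56, next 6.70), and Gpd1l, a glycerol-3-phosphate dehydrogenase relative, in BXD23 (10.86 and 10.95, next 10.19). Agreement of both pools of the strain is fixed by that search, and the progenitor difference passed in 1 of the 7 genes, Tmem255a. Txndc16 was low in both pools of BXD34 and Sema4f in both pools of BXD36, and their ICCs of 0.938 and 0.922 became 0.356 and 0.417 without those strains.

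**Figure D3:**
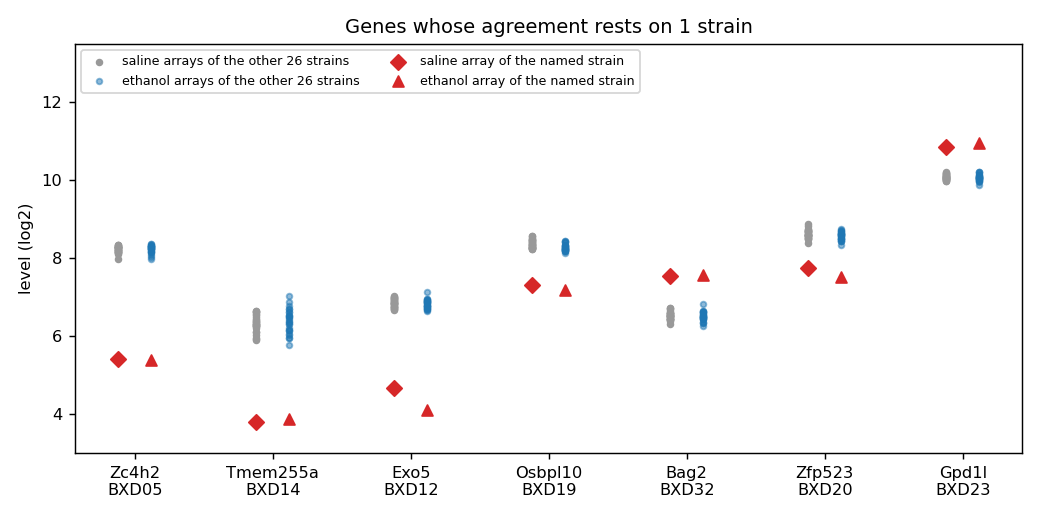
Levels (log2) of the 7 genes whose ICC rests on 1 strain; grey and blue points are the saline and ethanol arrays of the other 26 strains, and red diamonds and triangles the saline and ethanol arrays of the strain named under the gene. In each gene both red symbols lie outside the other strains, low in 5 genes and high in Bag2 and Gpd1l.

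Gene lists of pathways and cell types differed widely in agreement. The lists were compiled with earlier results of these data known, so their counts are descriptions to be set against 20.4% called and a median ICC of 0.184 over all genes. Of 38 lists 32 had a median ICC above that of all genes, and 417 of 1368 genes in a list had a strain effect.

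**Figure D4:**
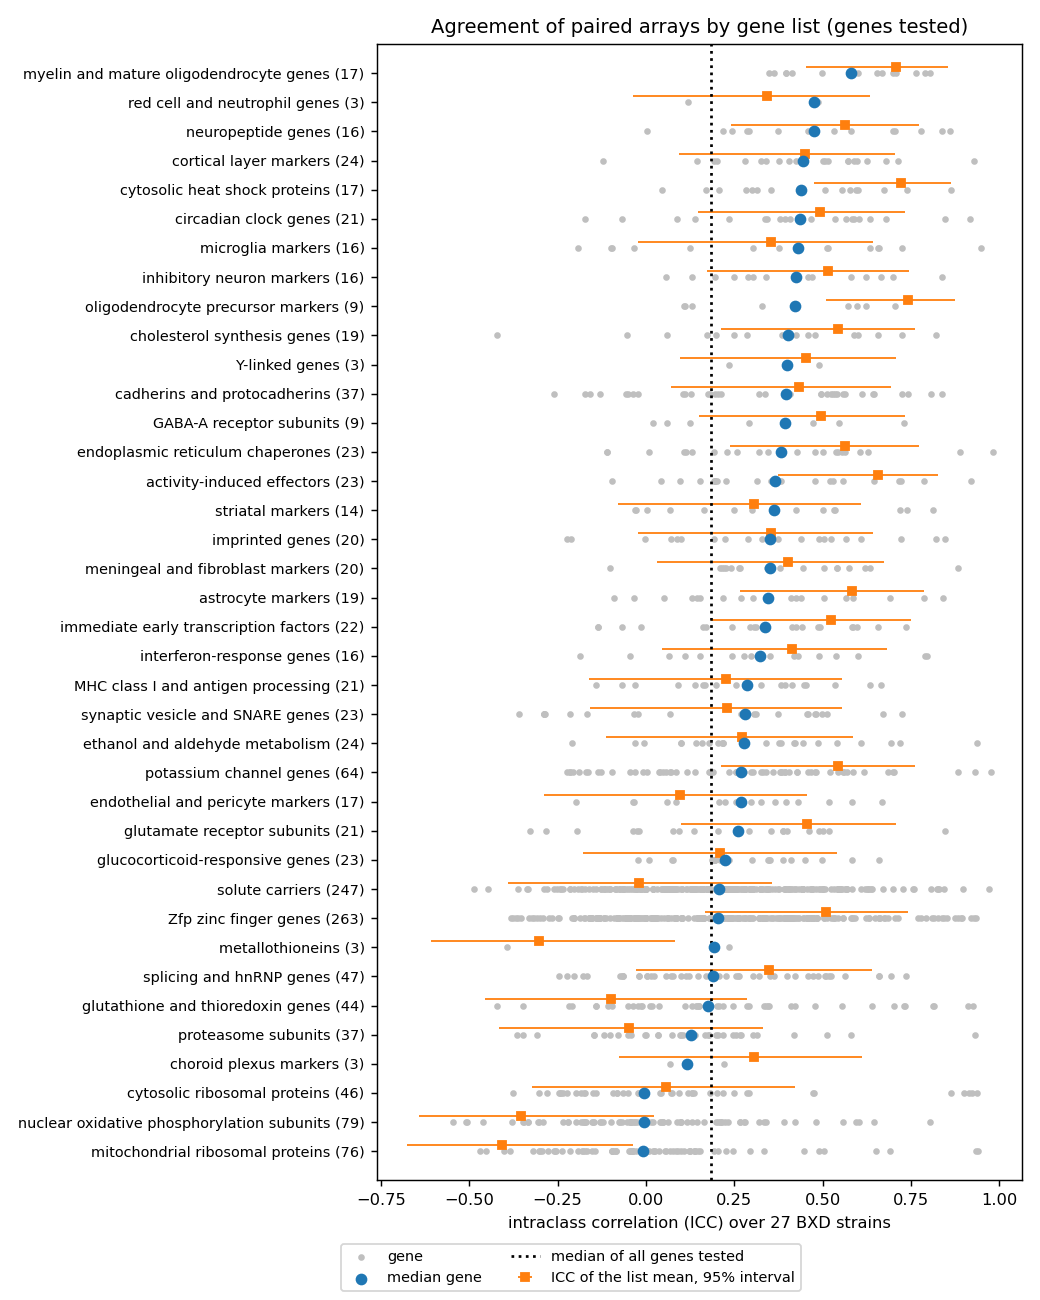
ICC over 27 BXD strains by gene list, with the number of genes tested in brackets; grey points are genes, blue points the median gene and orange squares the ICC of the list mean with its 95% interval, and the dotted line is the median of all genes. Myelin genes lie at the top with a median of 0.580, and ribosomal, oxidative phosphorylation and mitochondrial ribosomal lists lie at the bottom near 0.

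Myelin genes had the highest median ICC of the 38 lists. Of 17 genes of mature oligodendrocytes, the cells that wrap axons, 15 had a strain effect, with a median ICC of 0.580. Mobp, a structural protein of central myelin, ran from 8.39 to 10.03 (median 9.23) after saline and from 8.69 to 10.05 (median 9.17) after ethanol, with BXD39 lowest, BXD36 highest and an ICC of 0.802. Bcas1 (0.790), Cnp (0.764), Ugt8a, which makes galactocerebroside, and Mbp (0.699) followed, while Pllp and Septin4 did not pass.

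The mean of the myelin list ran from 7.77 to 8.70 (median 8.15) over saline arrays and from 7.85 to 8.60 (median 8.12) over ethanol arrays. Its ICC was 0.706 (95% interval 0.452 to 0.854). Its members rose and fell together across strain means (median pairwise r = 0.716) and also in the difference between paired arrays (0.484), against means of 0.014 and 0.026 over all gene pairs. The myelin mean also moved with the overall spread of values on an array: its pair difference had r = 0.454 with that of the array SD (rho = 0.448; permutation p = 0.0180 and 0.0201, adjusted over 8 lists 0.0571 and 0.0757; r = 0.379 without the 2 most extreme strains). The part of the array SD in the myelin result was not tested.

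Precursors of oligodendrocytes had 5 of 9 markers called, with a list mean at an ICC of 0.742, led by the lineage factor Olig1 (0.705). Among 16 microglial markers 9 were called. Fcrls, a microglial surface receptor, reached 0.948, C1qb, a subunit that starts the complement cascade, 0.726, but Cx3cr1, the fractalkine receptor, had an ICC of -0.10 with a pool SD of 0.36. Of 19 astrocyte markers 6 were called, led by Ntsr2 (0.841) and by glutamine synthetase, Glul (0.787). Gfap, the astrocyte filament protein, had an ICC of 0.05 and a pool SD of 0.35, the largest of that list, and differed by 1.35 between the pools of BXD01.

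Markers of tissue at the edge of a dissection were mixed. Of 20 meningeal and fibroblast genes 11 were called. The collagen gene Col1a2 had an ICC of 0.883, which became 0.495 without BXD22, its lowest strain at 6.36. The list mean had an ICC of 0.401 and differed most in BXD18, at 8.00 after saline and 7.30 after ethanol. Without BXD18 it was 0.656, and without BXD22 it was 0.299. The genes called numbered 15 without BXD18 and 8 without BXD01. Of 14 striatal markers 6 were called, among them Scn4b at 0.812, while Penk, the enkephalin precursor, was at 0.004, with 8.42 to 9.47 after saline and 8.37 to 9.26 after ethanol. Of 3 choroid plexus genes 0 were called in limma's F test and 1, Ttr, had an unadjusted p below 0.05. Ttr, which encodes the transthyretin made by that tissue, was at 8.35 in the ethanol pool of BXD38 against an ethanol median of 6.24, and its pool SD in the progenitors was 1.42. Its ICC of 0.22 became 0.592 without BXD38, and 1 choroid plexus gene was then called. Endothelial and pericyte genes had 5 of 17 called, or 3 without BXD16 and 7 without BXD23. Their list mean had an ICC of 0.097.

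Neuronal identity genes were above the background too. Neuropeptide genes had 11 of 16 called and a median ICC of 0.476. Gastrin-releasing peptide, Grp, ran from 7.39 to 8.95 (median 8.24) after saline and from 7.44 to 9.05 (median 8.38) after ethanol at an ICC of 0.862. Cortistatin, Cort, reached 0.839, Adcyap1, the precursor of PACAP, 0.777 and Vip 0.700. The Adcyap1 strain means lay outside the span of both parents in 24 strains. That span was narrow, with 8.21 in C57BL6/J and 8.16 in DBA/2J, so the count is no measure of strain variation. Layer markers had 17 of 24 called, led by Deptor (0.928), an inhibitor of mTOR, and inhibitory neuron markers 8 of 16. Pvalb, the calcium buffer of fast-spiking cells, had an ICC of 0.666, and Gad2 one of 0.13.

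Among receptors, Grin2b, an NMDA receptor subunit, stood out in its list at 0.846, where 6 of 21 glutamate receptor genes were called and Grin2a was at -0.33. Gabra2, the GABA-A subunit long studied for alcohol dependence, had an ICC of 0.729 with saline levels of 7.41 to 9.06 (median 8.57) and ethanol levels of 7.30 to 9.14 (median 8.66). It was 0.86 higher in DBA/2J, 24 strains lay nearer DBA/2J, and its ICC became 0.50 without BXD38. Its other probe sets had ICCs of 0.762 and 0.307 and were 0.99 and 1.18 higher in DBA/2J. Of 9 GABA-A subunits 3 were called. Synaptic vesicle genes had 7 of 23 called, and Syn1, Syp and Bsn had ICCs of -0.36, -0.29 and -0.29. Potassium channel genes had 20 of 64 called and cadherins 20 of 37.

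Genes that answer to neuronal activity kept part of their strain rank despite large differences between pools. Immediate early transcription factors had 12 of 22 called with a median ICC of 0.337, and their median pool SD of 0.205 was above the 0.126 of all genes. Fos ran from 7.09 to 9.95 (median 8.21) after saline and from 7.49 to 9.48 (median 8.69) after ethanol. Its strain means ran from 7.54 in BXD19 to 9.70 in BXD01 at an ICC of 0.443 (95% interval 0.083 to 0.701; adjusted p = 0.00627). The progenitor difference was -0.72. It was not compared with the range of strain means, which pool differences also widen. Egr1 (0.657) and Egr2 (0.599), zinc finger factors, and Ier5 (0.737) agreed more closely.

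Npas4, a factor specific to activated neurons, did not hold its strain rank. It ran from 6.08 to 7.17 (median 6.64) after saline and from 6.60 to 8.00 (median 7.60) after ethanol, and its ICC was -0.136 with a pool SD of 0.35. Its 2 groups overlapped in range. Fosb, Junb and Jund also missed the threshold, with ICCs of 0.24, 0.16 and -0.01. The mean of the list had an ICC of 0.523, with BXD19 lowest at 7.56 and BXD01 highest at 8.31.

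Of the effectors induced by activity 13 of 23 were called, with a median ICC of 0.364 and a list mean at 0.656. Ptgs2, the inducible cyclooxygenase, ran from 5.48 to 7.96 (median 6.72) after saline and from 5.53 to 7.71 (median 6.87) after ethanol, at an ICC of 0.919 and with a progenitor difference of -1.21. Bdnf, a neurotrophin, had an ICC of 0.717 with strain means from 8.56 in BXD27 to 9.86 in BXD01, and with parents only 0.05 apart. Nptx2, a synaptic pentraxin, was at 0.646 and Arc at 0.364, with a pool SD of 0.51 for Arc.

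Targets of stress hormones were near genes at large in adjusted calls, but not at an unadjusted p. Glucocorticoid-responsive genes had 6 of 23 called (26.1%, against 20.4% of all genes) and a median ICC of 0.223. In the same moderated F test 13 of 23 had an unadjusted p below 0.05, against 32.9% of all genes. The number called ran from 4 to 7 when 1 strain was left out. Pdk4, which restrains pyruvate oxidation, had the highest ICC at 0.658. Fkbp5, the receptor's cochaperone, ran from 7.73 to 8.63 (median 8.27) after saline and from 8.12 to 8.96 (median 8.42) after ethanol at an ICC of 0.195. Its residual variance was 4.21 times that of the progenitors, which did not pass (one-sided F test, p = 0.0201, adjusted 0.789). Its other probe set had an ICC of -0.167. Ddit4, an inhibitor of mTOR, had a pool SD of 0.37, and its pools differed by 1.61 in BXD15.

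Cytosolic heat shock genes had 10 of 17 called, and their list mean had an ICC of 0.722 (95% interval 0.476 to 0.863), from 9.24 to 9.66 (median 9.42) after saline and from 9.24 to 9.71 (median 9.38) after ethanol. The small heat shock protein Hspb8 was at 0.862, and the inducible Hspa1b at 0.60 with a difference of 1.02 between the pools of BXD20. Hsp90aa1, the abundant cytosolic Hsp90, was at 0.28 and did not pass. Chaperones of the endoplasmic reticulum had 11 of 23 called, Hspa5 at 0.63 among them, but 6 of 23 without BXD11. Cholesterol synthesis genes had 11 of 19 called, led by the demethylase Cyp51 (0.821), while Srebf2, the factor that controls the pathway, was at -0.42. The count was 7 without BXD22, and also without BXD34 or BXD38.

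Circadian clock genes had 13 of 21 called and a median ICC of 0.435. Per3, a period gene, ran from 6.64 to 8.43 (median 7.33) after saline and from 6.62 to 8.39 (median 7.27) after ethanol, with an ICC of 0.917 and a progenitor difference of 0.88. The kinase gene Csnk1e, whose product marks period proteins for decay, had an ICC of 0.846. Per1 was at -0.07 with 7.28 to 8.25 (median 7.91) after saline and 7.40 to 8.35 (median 7.87) after ethanol.

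Dbp, an output of the clock whose RNA cycles with large amplitude in many tissues, ran from 8.51 to 10.31 (median 9.72) after saline and from 8.61 to 10.38 (median 9.63) after ethanol, at an ICC of 0.534. BXD16 was low in both pools, at 8.77 and 8.61, and BXD34 high in both, at 10.28 and 10.13. BXD15 and BXD11 disagreed, with 8.51 and 8.59 after saline against 9.43 and 9.45 after ethanol.

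A comparison of Dbp with all other genes over the 27 strain means was added after its values were seen. Of 13195 genes the most alike was Ciart, a repressor of the clock activators (r = 0.917), followed by Klf15 (0.807), a transcription factor, and Pik3ip1 (0.801). Nfil3, whose protein competes with Dbp for the same sites, was the 4th by size and opposite in sign (r = -0.795), Nr1d2 the 5th (0.791), the clock-controlled Usp2 the 6th (0.75) and Nr1d1 the 11th (0.711), with Trappc12, Bbs2, Hes6 and Smox between. In all, 100 genes had a size of r of at least 0.6. The clock activator Arntl had r = -0.65 and ranked 43rd. None of these began within 5 Mb of Dbp. Per1 (0.12), Per2 (-0.11) and Per3 (0.20) had low correlations with Dbp over strains, as had Clock (-0.27), Hlf (-0.01), Bhlhe40 (-0.13), Bhlhe41 (0.0011) and Tef (0.34). Ciart (0.757) and Nr1d2 (0.712) followed it also in the differences between paired pools, while Arntl was at -0.42, Nr1d1 at 0.12 and Nfil3 at -0.12 there. The hour at which pools were taken is not given in the sources used here, so strain differences in the clock and differences in sampling time cannot be told apart.

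The E-box CACGTG, the palindromic site of the clock activators, was searched with 4 other motifs in the 250 bases before the RefSeq start of each gene (GRCm38.p6), which matched 18 of the 21 clock genes. It was present in 5 of 18 (27.8%), namely Bhlhe41, Ciart, Cry1, Per1 and Tef, against 1040 of 10603 promoters (9.81%) of all genes tested with a sequence. It was also present in 4 of 16 effectors (25%) and 3 of 18 immediate early factors (16.7%). Ciart, the closest partner of Dbp, had 3 matches in the 120 bases shown and an ICC of 0.604. Per1 had 1 match in its 250 bases and no strain agreement. Both are printed 5′ to 3′ on the strand of the gene, up to the base before the start, with the E-box in capitals; a match of letters is not a test of binding. The window of Ciart is chr3:95882229-95882348 (minus strand) and that of Per1 chr11:69098699-69098948 (plus strand).
Ciart: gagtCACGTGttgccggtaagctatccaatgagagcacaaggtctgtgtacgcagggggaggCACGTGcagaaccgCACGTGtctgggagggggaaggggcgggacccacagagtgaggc
Per1: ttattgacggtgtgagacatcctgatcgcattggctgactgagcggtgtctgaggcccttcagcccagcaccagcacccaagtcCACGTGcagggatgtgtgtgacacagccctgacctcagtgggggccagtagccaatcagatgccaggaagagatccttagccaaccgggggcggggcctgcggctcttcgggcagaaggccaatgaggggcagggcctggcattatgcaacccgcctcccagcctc

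The other motifs, also searched on both strands, were rare in these windows. The cyclic AMP response element TGACGTCA was found in 2.91% of all promoters, in 3 of 16 promoters of effectors (Dusp1, Pcsk1 and Plk2) and in 2 of 18 of immediate early factors (Btg2 and Maff). The palindromic NRF1 site was found in 1.69% of all, in 3 of 67 mitochondrial ribosomal genes and in 3 of 64 oxidative phosphorylation genes. A heat shock element of 3 inverted units was found in 0.472% of all and in 0 of 14 heat shock genes, and a serum response element in its c-Fos form in 1 promoter of all and in 0 of 18 of immediate early factors.

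Genes of housekeeping machinery seldom held their strain rank. Of 46 cytosolic ribosomal protein genes 5 were called, of 79 nuclear oxidative phosphorylation genes 5, of 76 mitochondrial ribosomal genes 7 and of 37 proteasome subunits 3. The median ICCs of these lists were -0.005, -0.006, -0.007 and 0.128. Their pool SDs were not large, with medians of 0.0983, 0.101, 0.118 and 0.101. The median strain SD was 0 in the ribosomal and mitochondrial lists, and it was 0.0370 in the proteasome list. A strain variance estimated below 0 was set to 0, so a strain SD of 0 is not a measured absence of strain spread.

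The genes called in these lists had ICCs of 0.75 or more in 5 of 5 ribosomal cases, but in 2 of 7 mitochondrial ribosomal, 1 of 5 oxidative phosphorylation and 1 of 3 proteasome cases. The ribosomal genes called were Rps2 (ICC 0.937), Rpl14 (0.923), Rps4l (0.914), Rps6 (0.90) and Rpsa (0.862), and the next highest was Rps4x at 0.48. Rps2 ran from 11.38 to 12.13 (median 11.54) after saline and from 11.36 to 12.18 (median 11.56) after ethanol, with BXD06 highest. Ribosomal protein genes have many near-identical copies in the genome, and whether their probe sets also read such copies was not tested. Mrpl48 (0.940), Mrpl55 (0.933), the proteasome subunit Psmb6 (0.932) and the complex I subunit Ndufa12 (0.803) led the other lists, and each was 0.51 to 0.75 lower in DBA/2J.

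Members of these lists, called and not called taken as 1 set, moved together within pairs. The mitochondrial ribosomal mean ran from 8.56 to 8.91 (median 8.73) after saline and from 8.55 to 8.92 (median 8.67) after ethanol. Its ICC was -0.406, with a 95% interval of -0.677 to -0.037. The interval lay below 0 in 22 of the 27 fits without 1 strain and included 0 in the other 5, among them those without BXD14 (-0.354, upper bound 0.0308) and BXD18 (-0.368, upper bound 0.0150). The means of the oxidative phosphorylation (-0.354), proteasome (-0.049) and cytosolic ribosomal (0.058) lists had intervals that included 0. In BXD18 it was 8.91 after saline and 8.62 after ethanol. Pair differences of its members had a median pairwise r of 0.578.

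Over the 27 strains the pair difference of that list mean followed those of oxidative phosphorylation genes (r = 0.945, rho = 0.951), cytosolic ribosomal genes (0.924 and 0.905) and proteasome subunits (0.879 and 0.817). Each of these 3 relations had a permutation p of 1e-05, the smallest that 100000 relabellings can give, also after adjustment, and without the 2 most extreme strains r was 0.927, 0.895 and 0.848. BXD18 had the largest pair difference in all 4 lists. Against the pair difference of the array SD the mitochondrial ribosomal mean had r = 0.505 and rho = 0.423 (permutation p = 0.00724 and 0.0284; adjusted over 8 lists 0.0571 and 0.0757; r = 0.471 without the 2 most extreme strains). The part of the array SD in this shared movement was not tested.

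The 12 genes of largest pool SD with an ICC below 0.25 were a mixed group. Mt3, the metallothionein of neurons and astrocytes, ran from 9.90 to 11.45 (median 10.76) after saline and from 9.59 to 11.43 (median 10.74) after ethanol, with an ICC of -0.392 and a pool SD of 0.55. Its levels overlapped fully between groups, and the pools of BXD01 differed by 1.52. Its relatives Mt1 and Mt2, which bind zinc and respond to stress, had ICCs of 0.24 and 0.19 and pool SDs of 0.14 each. Hnrnpab, an RNA-binding protein, had the largest pool SD of the group, 0.60. It ran from 10.04 to 11.92 (median 11.17) after saline and from 10.27 to 12.21 (median 11.19) after ethanol. On the 4 other probe sets of Hnrnpab the pool SD was 0.08 to 0.13. Sesn3 fell from 0.50 to 0.10 and Evi5 from 0.45 to 0.15 on a second probe set, so the wide spread of these 3 was not shared by their other probe sets.

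In others of the group single pools stood apart. S100a9, a calcium-binding protein of neutrophils, ran from 5.04 to 7.25 (median 5.33) after saline and from 4.62 to 6.33 (median 5.31) after ethanol, and the pools of BXD27 differed by 1.59. Dpm3 was at 8.62 after saline and 5.99 after ethanol in BXD32, while its medians were 5.99 and 5.94. Without BXD32 the ICC of Dpm3 was 0.743 in place of 0.205, and without BXD01 it was 0.062. The remaining genes of the group were Otub1, a deubiquitinase, the splicing cofactor Srrm2, the tRNA methyltransferase Alkbh8, Irf2bp2, the small GTPase Rap2b and Nbeal1, with pool SDs of 0.37 to 0.44. Each of these 6 had a lower pool SD on its other probe sets, from 0.10 (Rap2b) to 0.29 (Srrm2 and Nbeal1), and 1 of those for Srrm2 had an ICC of 0.779. Gsk3b, a kinase central to Wnt and insulin signalling, was not in this group. It had an ICC of -0.238 and a pool SD of 0.17, with 9.36 to 9.98 after saline and 9.35 to 9.97 after ethanol. Its other probe sets had ICCs of -0.458 to 0.109 and pool SDs of 0.11 to 0.64.

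Some parental differences did not appear as a called strain effect. Among genes that passed between progenitors but not over BXD strains, Tnr, the extracellular matrix protein tenascin-R, had the largest difference, 0.78 lower in DBA/2J (SE 0.10, limma adjusted p = 3.43e-05). Its BXD levels ran from 7.47 to 8.40 (median 7.98) after saline and from 7.21 to 8.47 (median 8.01) after ethanol at an ICC of 0.313 (adjusted p = 0.0566). Tsc22d3, a glucocorticoid-induced leucine zipper protein, was 0.57 lower in DBA/2J, and 24 of 27 strain means were nearer C57BL6/J. Gjb6, the astrocyte connexin 30, was 0.55 lower, Cd302 0.58 lower, Dctn6 0.56 lower and Snhg4 0.66 higher, with ICCs of 0.128 to 0.346. The other probe set of Dctn6 was only 0.02 higher in DBA/2J, so its parental difference was not shared by both.

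Over all genes the paired arrays recognised each other in most strains. After removal of treatment means, 22 of 27 saline arrays correlated best with the ethanol array of their own strain, and 23 of 27 ethanol arrays with the saline array of theirs. The own-strain correlation over 13196 genes had a median of 0.438, against -0.022 between strains, and no relabelling of 100000 reached its mean of 0.434 (permutation p = 1e-05, the smallest possible). It ran from 0.163 in BXD28 to 0.752 in BXD11. The highest correlation between arrays of different strains was 0.391, so the ranges overlapped.

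Pairs of BXD02, BXD20 and BXD28 were matched in neither direction, those of BXD18 and BXD42 not from the saline side and that of BXD36 not from the ethanol side. The root mean square difference of a pair ran from 0.125 in BXD11 to 0.258 in BXD28 (median 0.187). The number of genes more than 2-fold apart had a median of 5 and ran from 1 in BXD23 to 29 in BXD20, with 21 each in BXD02 and BXD32. The plot of own-strain correlations shows that a high correlation did not exclude many such genes, as BXD32 has 0.475 and 21 genes.

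**Figure D5:**
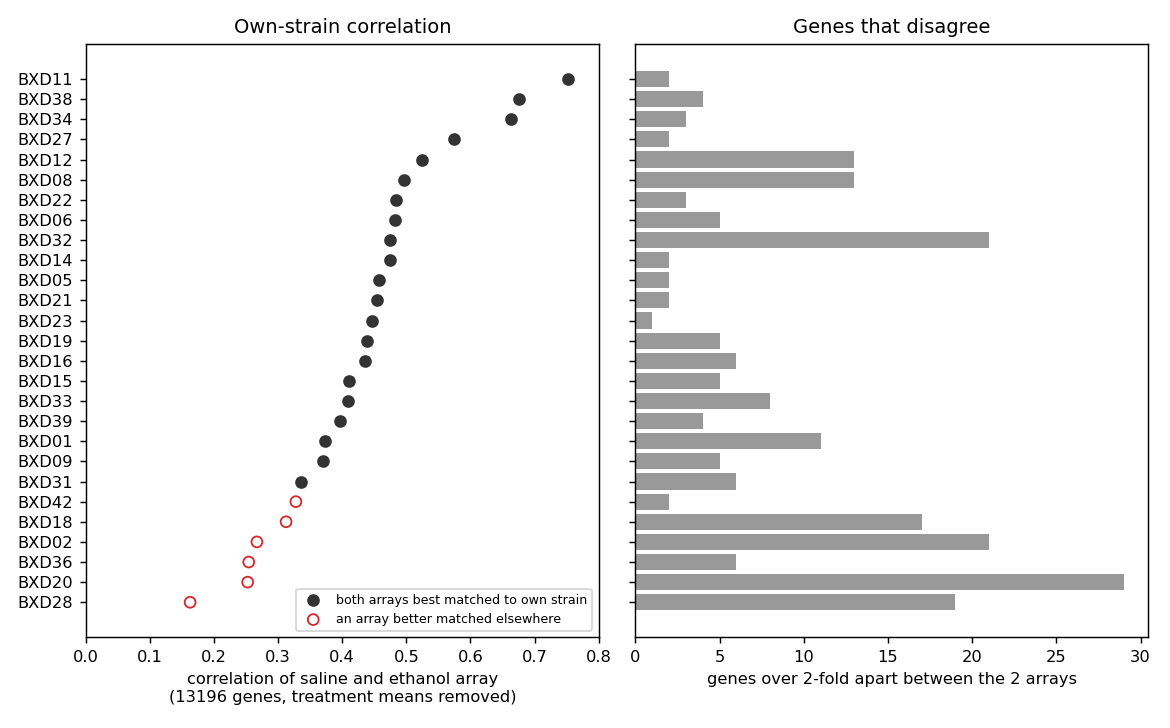
Left, correlation over 13196 genes between the saline and ethanol array of each BXD strain, ordered from BXD11 (0.752) to BXD28 (0.163); open red circles mark the 6 strains with an array better matched to another strain. Right, number of genes more than 2-fold apart between both arrays of the strain, from 1 to 29.

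The size of the pair difference was set against 3 differences between paired arrays over the 27 strains, and no relation passed. Pearson's r was 0.315 with the array SD (permutation p = 0.108, adjusted 0.162; rho = 0.354, p = 0.0682, adjusted 0.132), 0.148 with the meningeal mean (p = 0.429, adjusted 0.429; rho = 0.298, p = 0.132, adjusted 0.132) and 0.319 with the myelin mean (p = 0.104, adjusted 0.162; rho = 0.300, p = 0.128, adjusted 0.132). Without the 2 most extreme strains r was 0.280, -0.0784 and 0.272.

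Pair differences were not spread evenly over genes. A principal component analysis of them gave a leading axis with 22.4% of their variance, led by Mt3, Cabp1, Lrrc4b, Ap2a1 and Scaf1, and Gfap was among its 15 leading genes. The next axis held 15.8% and had r = -0.835 with the pair difference of the array SD, a description of these 27 pairs. The one after held 9.58% and included Sesn3, Evi5 and S100a9. Without the 5 strains whose saline array did not find its own partner, 3375 genes had a strain effect and the median ICC was 0.243. Those strains were left out for their low agreement, so a higher value is built in.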

How the data were processed

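RNA was measured on Affymetrix mouse arrays. The deposited values are log2 levels made by the authors with RMA in affy, which the submitters' processing notes name without a version. Of 45037 probe sets, 34945 had 1 gene symbol, 932 several and 9160 none in the platform annotation, and 34741 symbols were updated through RefSeq (GRCm38.p6). Probe sets with a mean below 5.10, the 40th percentile, were left out (18015), and the brightest probe set was kept per gene.

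Treatment and strain were fitted on the 54 BXD arrays with limma 3.58.1 in R 4.3.3, and a moderated F tested 26 strain coefficients with 26 residual degrees of freedom. The ICC and its 95% interval came from the mean squares of this fit. The progenitor difference was fitted on 12 arrays. P-values were adjusted by Benjamini and Hochberg over 13196 genes. In the progenitor fit they rest on the spread between pools of the same strain and treatment. In the BXD fit they rest on the pool SD, which also holds any strain difference in the response to ethanol. The labels do not tie pools to separate litters, and the number of arrays limits precision. Array batches were randomised per the labels, and the batch of each array was not used here.

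Genes were named by rule: the 12 of highest ICC, the 12 of largest pool SD with an ICC under 0.25, the extremes of each list, 6 stable genes without and 6 unstable genes with a progenitor difference, and a set chosen for its role. The latter set, the members and the lists were chosen with earlier results of these data known. Other genes were named after their values were seen. The fits were tested on simulated data. Replicate numbers of the progenitors did not pair the arrays, with same-number correlations of -0.231 to 0.262.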

Additional observations from a re-analysis of the deposited data

How the results depend on the processing

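The number of genes with a BXD strain effect was 2233 to 3379 under another level filter, no filter, array weights, no treatment term, a plain F test, another normalization, median centring, a trended prior and the omission of the 5 poorly matched strains, which was chosen after seeing the data. It was 4098 when all 23199 probe sets were tested and 4695 when the leading residual component was added to the model. That component was taken from the residuals of the same strain fit, so a smaller residual is built in. On all probe sets 787 had an ICC of at least 0.75, 3351 differed between progenitors and 2076 were called in both the BXD and the progenitor fit. From saline arrays alone 1365 genes differed between progenitors. Leaving out 1 strain at a time gave 2217 (without BXD38) to 2860 (without BXD20) genes with a strain effect, 423 to 469 with an ICC of at least 0.75 and 20 to 23 saline arrays matched to their own strain. Leaving out 1 progenitor array gave 1744 to 2436 genes that differed between progenitors, 1171 to 1303 called in both and 0 called for pair spread. With the replicate number as a block, 1914 genes differed between progenitors, 1225 were called in both and 0 for pair spread. Beyond what is built in, the cause of these shifts was not tested. Single genes were repeated only where named by a rule other than the list extremes. Among these no progenitor difference that passed in the main fit reversed under these alternatives, which kept the brightest probe set. Other probe sets of Prune2, Pdxdc1, Hspa13 and Kcnj9 had the opposite sign. Of 1700 repeats of the strain effect of the repeated genes, 9 lost and 26 gained the call.

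With 1 array per strain and treatment, the spread between pools and a strain difference in the ethanol response cannot be told apart, and dim probe sets have larger pool SDs.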
